A study of Mus musculus with 12 samples.

Results

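Ubiquitin ligases of the HECT class carry a catalytic cysteine that accepts ubiquitin from an E2 enzyme and then passes it on to the substrate, which sets them apart from RING and cullin ligases, where the E2 enzyme hands over ubiquitin directly. TRIP12, a nuclear member of this class, extends ubiquitin chains on proteins that another ligase has already marked, and the study asks how it acts on the oxidative stress response, which is held down by the cullin adaptor KEAP1 through turnover of the transcription factor NRF2. The question here is whether the mRNA of Trip12 and of 7 other HECT ligases, Huwe1, Herc1, Herc2, Nedd4, Itch, Smurf1 and Wwp1, changed in myoblasts that were depleted of KEAP1, of the cyclin-like F-box protein CCNF, or of both. These 8 genes were taken by name from the 54532 genes of the deposited table, and the list was drawn up with earlier results of these data known. They are 8 of 27 HECT genes listed for this work, and all 8 passed the filter on low counts.

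The cells were C2C12, an immortalised line of mouse myoblasts that can fuse into myotubes. They had been given siCONTROL, siKEAP1, siCCNF or the combination siKEAP1/siCCNF, and poly(A)-selected RNA was taken after 48 h. The siRNA dose was 30 nM, and whether this was the total or the dose of each siRNA in siKEAP1/siCCNF is not stated. The labels give a medium with 5% serum for all groups, while the paper's methods name a higher share for growing these cells. Each of the 4 groups held 3 libraries labelled as biological replicates, so every value comes from 1 cell line treated with siRNA, which lowers its target without removing it. The libraries held between 18464209 and 37743198 counts, and depth went with the groups. It ran from 18464209 to 22231732 in siCONTROL and from 21346088 to 24601929 after siKEAP1. After siCCNF it ran from 26039296 to 37743198, and after siKEAP1/siCCNF from 22825576 to 32216830. Levels are given as CPM, which are counts scaled to library size by the TMM method, and as FPKM, which also divides by gene length, where genes are compared with each other. Keap1 stood at 84.3 to 89.97 CPM in siCONTROL, at 12.3 to 12.8 CPM after siKEAP1 and at 22.2 to 27.0 CPM after siKEAP1/siCCNF. Ccnf stood at 77.7 to 85.5 CPM in siCONTROL, at 19.7 to 21.3 CPM after siCCNF and at 23.7 to 25.6 CPM after siKEAP1/siCCNF. Ccnf was also at 56.4 to 64.9 CPM after siKEAP1, a log2 difference of -0.45 (SE 0.07, edgeR adjusted p = 0.000258).

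Markers of the muscle lineage moved with the groups. The 7 myoblast markers summed to 1743 to 2076 CPM in siCONTROL, 1111 to 1141 CPM after siKEAP1, 779 to 810 CPM after siCCNF and 767 to 858 CPM after siKEAP1/siCCNF, and Des was the highest of them in each group. The 10 markers of differentiated myocytes summed to 59.0 to 139 CPM in siCONTROL and to 3.99 to 4.90, 17.96 to 26.2 and 7.92 to 8.53 CPM in the same order, with Ckm and Actn2 at 0 in every siKEAP1 library. The 6 markers of other cell types stayed at or below 6.30 CPM in sum, mostly Lyz2, and the T cell gene Cd3e was at 0 in all libraries. Whether the share of differentiating cells had a part in the values below was not tested, and in bulk RNA fewer cells of a kind and less RNA per cell cannot be told apart.

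Most of the 8 genes have long transcripts. The gene models measured 27464 bases for Herc1, 23507 for Huwe1, 16601 for Trip12, 16175 for Herc2, 10973 for Nedd4, 9709 for Itch, 6453 for Wwp1 and 6336 for Smurf1. The median over the 15122 genes tested was 3930 bases and the 90th percentile 9342, so 6 of the 8 genes lay above the latter. On GRCm38, Trip12 (ENSMUSG00000026219) lies on the minus strand of chromosome 1 at 84721189 to 84840516, Huwe1 on the plus strand of chromosome X at 151800807 to 151935417, and Herc2 on the plus strand of chromosome 7 at 56050196 to 56231800. Fbxo36, a gene on the opposite strand, overlaps Trip12, and whether the counting used strand is not stated. Its highest count in any library was 290, or 2.49% of the mean Trip12 count.

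In 2 libraries long genes were under-represented. In siCONTROL replicate 1 the deviation of log2 CPM from the group mean fell with log2 gene length across the genes tested (r = -0.306, a description across genes, which are not replicates). Its 1253 genes of at least 10000 bases were lower than in the other 2 siCONTROL libraries by a median of -0.41 on the log2 scale, and its 3167 genes under 2000 bases were higher by a median of 0.28. In siKEAP1/siCCNF replicate 3 the same measures were r = -0.276, -0.34 and 0.21. The 6 siKEAP1 and siCCNF libraries had r between -0.0944 and 0.0942. The other 2 siCONTROL and the other 2 siKEAP1/siCCNF libraries had r between 0.152 and 0.206, since deviations within a group sum to 0. All 8 HECT genes were below the other libraries of their group in both of these libraries. In siCONTROL replicate 1 the gap ran from -1.16 for Huwe1 to -0.40 for Itch, with a median of -0.57. In siKEAP1/siCCNF replicate 3 it ran from -0.73 for Herc2 to -0.05 for Smurf1, with a median of -0.53. These libraries also stood apart in muscle markers. siCONTROL replicate 1 held the highest sums of its group, 139 CPM for differentiated myocyte and 2076 CPM for myoblast markers. Its Myog was at 74.6 CPM, beside a mean of 30.6 CPM in the other 2. siKEAP1/siCCNF replicate 3 held the highest myoblast sum of its group, 858 CPM, but not the highest differentiated myocyte sum. What set these 2 libraries apart was not tested. For the 8 genes, comparisons are therefore given with all 12 libraries and again on the 10 libraries without these 2. Many values of other genes are given with all 12 only.

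**Figure D1:**
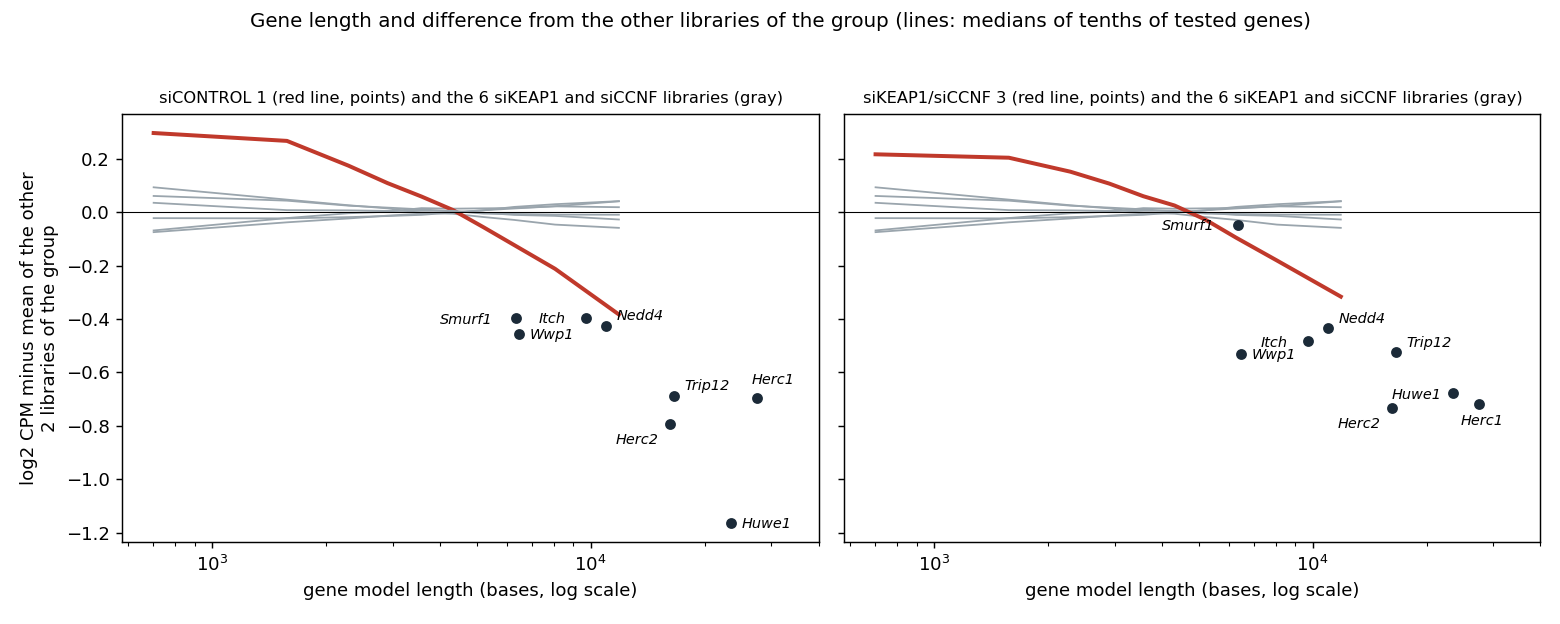
Difference in log2 CPM between a library and the mean of the other 2 libraries of its group (y axis) against gene model length in bases (x axis, log scale). Lines join medians over bins of near equal gene number, red for siCONTROL replicate 1 (left) and siKEAP1/siCCNF replicate 3 (right) and gray for the 6 siKEAP1 and siCCNF libraries. Black points are the 8 HECT genes in the red library, which lie below 0 in both panels.

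The order of levels per length was wide at the top and close in the middle. In siCONTROL, Nedd4, the founding member of the WW-domain branch that marks membrane receptors and channels, stood at 167 ± 26.7 FPKM (mean ± SD, n = 3). Trip12 followed at 15.7 ± 3.94 FPKM, Smurf1 at 14.8 ± 2.23 and Huwe1 at 13.3 ± 5.25, and these 3 neighbours did not differ beyond their spread. Itch stood at 9.20 ± 1.39 FPKM and Wwp1 at 8.83 ± 1.52, which did not differ beyond their spread either. The giant ligases Herc2, at 4.50 ± 1.28 FPKM, and Herc1, at 3.09 ± 0.784 FPKM, were lowest. Those spreads include siCONTROL replicate 1. In the other 2 siCONTROL libraries alone the means were 18.01 FPKM for Trip12, 16.3 for Huwe1 and 16.1 for Smurf1. There Trip12 ran from 17.8 to 18.2 FPKM, above Huwe1 at 15.6 to 17.0 and Smurf1 at 15.9 to 16.2. After siKEAP1 the 3 stood at 19.2 ± 0.398 FPKM for Trip12, 17.7 ± 0.424 for Huwe1 and 15.1 ± 0.561 for Smurf1. These SDs give the spread between libraries and not the error of a comparison between genes, which was not tested. The values of the 3 siKEAP1 libraries did not overlap between these genes. They ran from 18.9 to 19.7 FPKM for Trip12, 17.3 to 18.2 for Huwe1 and 14.4 to 15.45 for Smurf1.

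Trip12 itself changed little. Its 3 siCONTROL libraries held 187, 297 and 306 CPM, the siKEAP1 libraries 315, 319 and 328 CPM, the siCCNF libraries 287, 297 and 307 CPM, and the siKEAP1/siCCNF libraries 313, 306 and 215 CPM. The low values of 187 and 215 CPM are those of the libraries with the length trend, and the other 10 libraries span only 287 to 328 CPM. Against siCONTROL, the log2 difference of Trip12 was 0.28 after siKEAP1 (95% interval -0.07 to 0.64, adjusted p = 0.195), 0.17 after siCCNF (-0.18 to 0.53, adjusted p = 0.410) and 0.08 after siKEAP1/siCCNF (-0.28 to 0.44, adjusted p = 0.723), by the quasi-likelihood test of edgeR, with p adjusted over all genes tested (Benjamini-Hochberg). Without the 2 libraries the same differences were 0.08 (-0.01 to 0.17), -0.02 (-0.11 to 0.07) and 0.03 (-0.06 to 0.13), and none passed the threshold of an adjusted p under 0.05 (0.139, 0.682 and 0.570). The standard error for siKEAP1 went from 0.17 with all libraries to 0.04 without the 2. Trip12 passed after siKEAP1 in alternatives that keep them: without the filter on low counts (0.27, adjusted p = 0.0400), and when a smooth length trend was removed from each library (0.27, 0.13 to 0.41, adjusted p = 0.00344). The standard error of that last fit was 0.06.

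**Figure D2:**
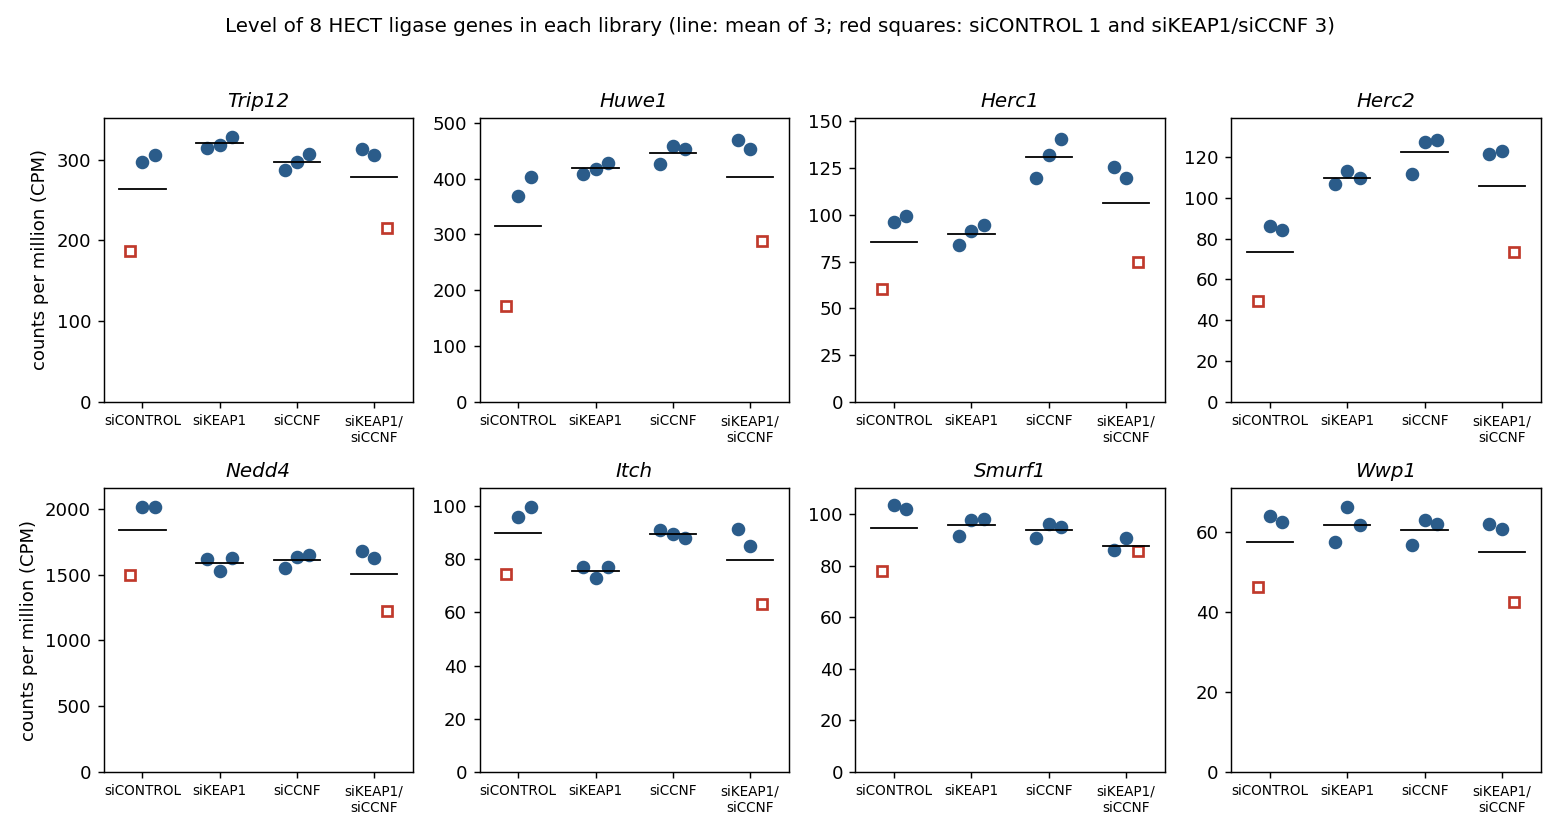
Level of each HECT gene in CPM (y axis, from 0) in the 3 libraries of each siRNA group (x axis), with the group mean as a line. Red squares mark siCONTROL replicate 1 and siKEAP1/siCCNF replicate 3. Trip12 lies between 287 and 328 CPM in all libraries but these 2, while Herc2 is above its siCONTROL values in all blue points of the 3 depletions.

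Huwe1, which marks MYC, MCL1 and p53 among others, had the widest gap between libraries. It stood at 172, 368 and 403 CPM in siCONTROL, at 409, 418 and 429 CPM after siKEAP1, at 426, 457 and 454 CPM after siCCNF, and at 469, 453 and 288 CPM after siKEAP1/siCCNF. The siKEAP1 and siCCNF libraries lay above all siCONTROL libraries, by little over the highest of these. With all libraries the log2 differences of Huwe1 were 0.41, 0.50 and 0.36 after siKEAP1, siCCNF and siKEAP1/siCCNF, and none passed (adjusted p = 0.208, 0.109 and 0.258). With all libraries kept, Huwe1 did pass in all 3 depletions when the length trend was removed (0.44, 0.43 and 0.46, adjusted p = 0.00646, 0.00605 and 0.00399) and with no filter on low counts (0.40, 0.51 and 0.36, adjusted p = 0.00963, 0.000526 and 0.0212). It passed after siCCNF also without siCONTROL replicate 3 (0.72, adjusted p = 0.0402). On 10 libraries they were smaller, with smaller errors, at 0.11 (SE 0.05), 0.21 (SE 0.05) and 0.25 (SE 0.05), and the latter 2 passed (adjusted p = 0.0817, 0.00162 and 0.000858).

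Herc2, a giant ligase of the DNA damage response, rose in all 3 depletions, both on 12 and on 10 libraries. Its siCONTROL libraries held 49.3, 86.4 and 84.3 CPM, the siKEAP1 libraries 107, 113 and 110 CPM, the siCCNF libraries 112, 128 and 129 CPM, and the siKEAP1/siCCNF libraries 121, 123 and 73.5 CPM. Only the last library, siKEAP1/siCCNF replicate 3, fell within the range of siCONTROL. The log2 rise of Herc2 was 0.58 after siKEAP1 (SE 0.20, adjusted p = 0.0362), 0.74 after siCCNF (SE 0.20, adjusted p = 0.00891) and 0.53 after siKEAP1/siCCNF (SE 0.20, adjusted p = 0.0489). On 10 libraries the rises were 0.35 (SE 0.06), 0.52 (SE 0.06) and 0.51 (SE 0.06), with adjusted p = 0.000101, 1.23e-06 and 4.62e-06. The siKEAP1 call was lost when any of 7 single libraries was left out, at adjusted p up to 0.108 without siCONTROL replicate 1, where the rise was 0.35. The siKEAP1/siCCNF call was lost without any of 9 libraries, with a rise of 0.31 without siCONTROL replicate 1 and of 0.74, still called, without siKEAP1/siCCNF replicate 3. It was also lost with limma on FPKM (adjusted p = 0.0716) and with the compared libraries only (adjusted p = 0.140). With the replicate number added to the edgeR fit it was lost too (adjusted p = 0.0526).

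Herc1, the longest of the 8, carries domains like the Ran exchange factor RCC1 beside its HECT domain. Its levels were 60.4, 96.3 and 99.6 CPM in siCONTROL, 84.1, 91.6 and 94.4 CPM after siKEAP1, 120, 132 and 140 CPM after siCCNF, and 126, 120 and 74.5 CPM after siKEAP1/siCCNF. The siCCNF libraries lay above all libraries of siCONTROL and siKEAP1. Herc1 rose after siCCNF by 0.62 on the log2 scale (SE 0.19, adjusted p = 0.0181), and without the 2 libraries by 0.42 (SE 0.06, adjusted p = 4.16e-05). The call was lost without siCONTROL replicate 1 (0.42, adjusted p = 0.0507) and without siCCNF replicate 3 (0.57, adjusted p = 0.0613). After siKEAP1 the difference was 0.08 with all libraries and -0.13 without the 2, with adjusted p = 0.788 and 0.102. After siKEAP1/siCCNF it was 0.32 in both fits, with adjusted p = 0.198 on 12 libraries and 0.00128 on 10. Herc1 also passed there with all libraries kept when the length trend was removed (0.40, adjusted p = 0.000101) or no filter on low counts was set (0.32, adjusted p = 0.0259), and without siKEAP1/siCCNF replicate 3 alone (0.52, adjusted p = 0.0209).

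Of the 4 WW-domain ligases, none passed in the fit on 12 libraries, and up to 3 were lower in the fit on 10. Nedd4 stood at 1501, 2016 and 2014 CPM in siCONTROL, 1618, 1528 and 1627 CPM after siKEAP1, 1549, 1636 and 1650 CPM after siCCNF, and 1679, 1625 and 1222 CPM after siKEAP1/siCCNF. The siCONTROL replicates 2 and 3 were thus above every library of the other groups, and replicate 1 was below all of these but 1. With all libraries the log2 differences of Nedd4 were -0.21, -0.19 and -0.29 (adjusted p = 0.195, 0.215 and 0.0748), and in the fit on 10 libraries it fell by 0.35, 0.32 and 0.29 (adjusted p = 6.18e-06, 1.25e-05 and 0.000111). Leaving out siCONTROL replicate 1 alone gave -0.35, -0.32 and -0.43, all called, and leaving out siKEAP1/siCCNF replicate 1 gave -0.37 after siKEAP1/siCCNF, also called. With all libraries kept and the length trend removed, Nedd4 was lower in all 3 depletions (-0.24, -0.23 and -0.26, adjusted p = 0.00452, 0.00491 and 0.00229). With no filter on low counts it was lower after siKEAP1 (adjusted p = 0.0445) and siKEAP1/siCCNF (adjusted p = 0.00565).

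Itch, which marks JUNB and p63 and limits T cell activation, stood at 74.4, 95.9 and 99.8 CPM in siCONTROL and at 77.1, 72.9 and 77.0 CPM after siKEAP1. After siCCNF it stood at 91.1, 89.4 and 87.9 CPM, and after siKEAP1/siCCNF at 91.3, 85.1 and 63.0 CPM. Its log2 difference after siKEAP1 was -0.25 with all libraries (adjusted p = 0.139) and -0.38 without the 2 (SE 0.05, adjusted p = 1.03e-05). With all libraries kept it passed when the length trend was removed (-0.28, adjusted p = 0.00673) and with no filter on low counts (-0.26, adjusted p = 0.0445), and it passed without siCONTROL replicate 1 (-0.38) or siKEAP1/siCCNF replicate 3 (-0.26) alone. After siCCNF the 2 fits gave -0.01 and -0.13 (adjusted p = 0.961 and 0.0363), and after siKEAP1/siCCNF -0.17 and -0.16 (adjusted p = 0.296 and 0.0256), or -0.30 without siCONTROL replicate 1 alone (adjusted p = 0.0477).

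Smurf1, a ligase of SMADs and RHOA, ranged over 78.0 to 103 CPM in siCONTROL, 91.6 to 98.2 CPM after siKEAP1, 90.7 to 95.95 CPM after siCCNF and 85.6 to 90.7 CPM after siKEAP1/siCCNF. Without the 2 libraries it was lower by -0.13 on the log2 scale after siCCNF (adjusted p = 0.0326) and by -0.22 after siKEAP1/siCCNF (adjusted p = 0.00268), and with all libraries the differences were -0.01 and -0.11 and did not pass. The latter was -0.24 without siCONTROL replicate 1 alone (adjusted p = 0.00477). Wwp1, a close relative of Itch, ranged over 46.0 to 63.9, 57.3 to 66.2, 56.7 to 62.9 and 42.4 to 61.9 CPM in the 4 groups. It passed in no comparison with siCONTROL in either fit, and its differences without the 2 libraries lay between -0.06 and -0.04 with intervals that reached from -0.20 to 0.10.

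Counted together, 1 of the 8 genes rose and none fell after siKEAP1, where 40.6% of all genes tested passed in either direction (20.4% higher and 20.2% lower). After siCCNF 2 rose and none fell, against 47.9% of all genes (22.5% higher and 25.5% lower). After siKEAP1/siCCNF 1 rose and none fell, against 44.2% (20.6% higher and 23.6% lower). No change of the 8 reached 2-fold. The median log2 difference of the 8 was 0.09, 0.12 and 0.01, beside -0.01, 0.01 and 0.01 over all genes tested. In the fit on 10 libraries, where 15545 genes were tested, 1 of the 8 rose and 2 fell after siKEAP1, against 48.6% of all genes (23.6% higher and 25% lower). After siCCNF 3 rose and 3 fell, against 54.6% (26.7% and 27.9%), and after siKEAP1/siCCNF 3 rose and 3 fell, against 48.8% (23.4% and 25.4%). With the length trend removed 5, 4 and 4 of the 8 passed, against 45.4%, 52.5% and 49.9%. Genes of at least 10000 bases passed at other rates, 36.7%, 48.7% and 41.3% with all libraries. These shares were 58.2%, 68.1% and 62.3% on 10 libraries, and 50.4%, 60.9% and 57.4% with the length trend removed. Over the genes of at least 10000 bases the median standard error after siKEAP1 was 0.14 with all libraries and 0.07 without the 2.

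**Figure D3:**
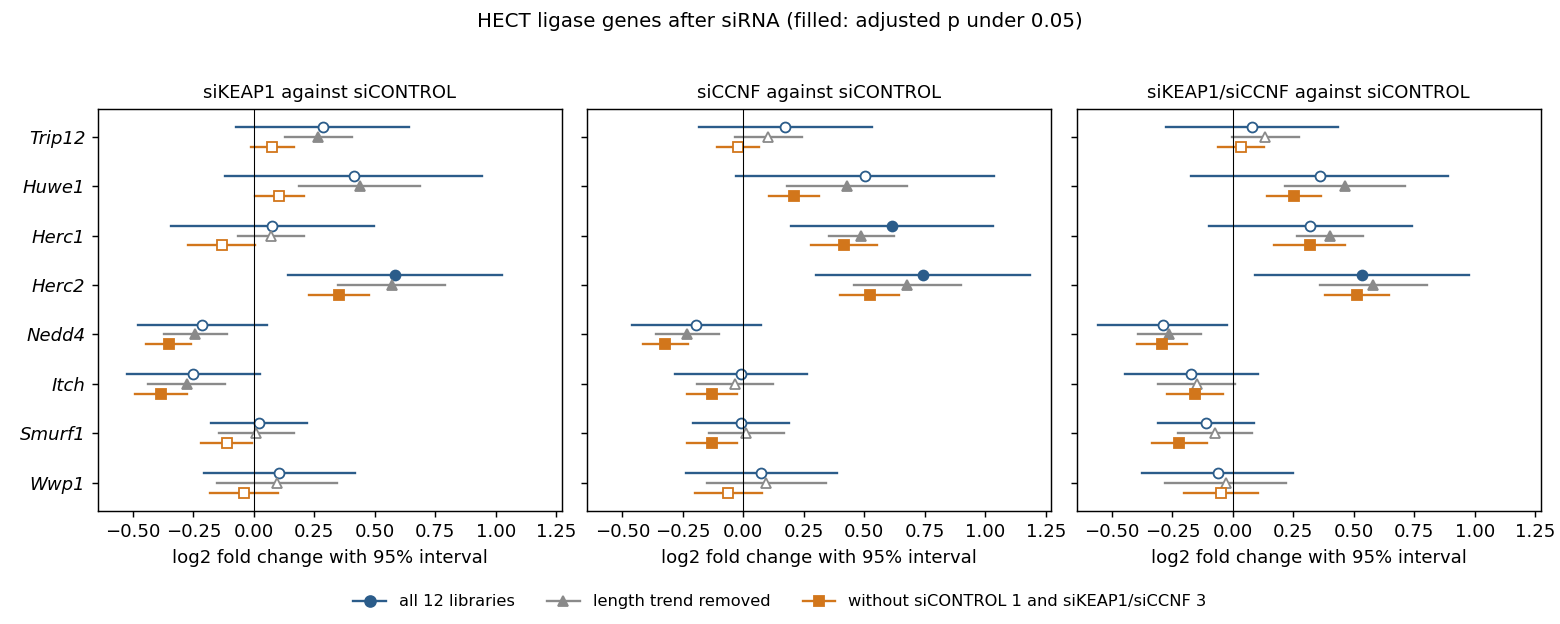
Log2 fold change against siCONTROL (x axis, with 95% intervals) of each HECT gene (y axis) after siKEAP1, siCCNF and siKEAP1/siCCNF. Blue circles use all 12 libraries, gray triangles the fit with the length trend removed, and orange squares the fit without siCONTROL replicate 1 and siKEAP1/siCCNF replicate 3. Filled symbols have an adjusted p under 0.05, and Herc2 is filled throughout.

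The double depletion was also set against each single one. Against siKEAP1 none of the 8 passed by edgeR, by DESeq2 or at an unadjusted p under 0.05, where 51% of all genes were called by edgeR, and the differences lay between -0.20 for Trip12 and 0.24 for Herc1. Without siCONTROL replicate 1 and siKEAP1/siCCNF replicate 3, 4 were higher, Herc1 by 0.45 (adjusted p = 1.38e-05), Itch by 0.23 (0.000967), Herc2 by 0.16 (0.0197) and Huwe1 by 0.15 (0.0154), against 58.8% of all genes. Herc1 was also higher with all libraries kept and the length trend removed (0.33, adjusted p = 0.000427), and without siKEAP1/siCCNF replicate 3 alone (0.45, adjusted p = 0.0358). Against siCCNF none passed in either fit, by DESeq2 or at an unadjusted p under 0.05 with all libraries, where 5.19% and 14.1% of all genes did, and without the 2 libraries all 8 differences lay between -0.10 and 0.06. The interaction asks whether siKEAP1 acted differently once CCNF was depleted (siKEAP1/siCCNF against siCCNF, less siKEAP1 against siCONTROL). It passed for none of the 8 by edgeR with all libraries, against 21% of all genes. At an unadjusted p under 0.05 Herc2 passed alone, at -0.79 (adjusted p = 0.0698), and it passed by DESeq2 (adjusted p = 0.0302), with the length trend removed (-0.67, adjusted p = 0.00338) and with no filter on low counts (-0.79, adjusted p = 0.000158), where Huwe1 passed too (-0.55, adjusted p = 0.0220). On 10 libraries the interaction of Herc2 was -0.36 (adjusted p = 0.00261), that of Nedd4 0.38 (0.000218) and that of Itch 0.36 (0.00108), against 30.9% of all genes. These comparisons share libraries with those against siCONTROL and are no independent evidence.

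KEAP1 loss frees NRF2, which binds antioxidant response elements, so the promoters of the 8 genes were searched for the core of this element, TGACNNNGC, on both strands. RefSeq windows of 250 bases before to 50 after the start site (GRCm38.p6) were at hand for 6 of the 8, and 14% of the 27025 genes with a window held the letters. They were present in 4 of the 6, and the 30 bases around each match are printed because these are the genes whose response to siKEAP1 the report turns on. The match is in capitals, its distance is from the start site of its window, and each line reads along the strand of the gene. Herc2 and Nedd4 each had 2 windows, and the line printed is the only match. The matches of Trip12, Herc2 and Nedd4 lie inside their gene models, which begin at 84840516, 56050196 and 72662346 along the strand of each gene. Only the match of Herc1 lies before its gene model, which begins at 66350450.
Trip12, chr1:84839474-84839503, minus strand, -189: gcgacaggatGCGCTGTCAatagggagcgg
Herc1, chr9:66350200-66350229, plus strand, -249: gTGACTCCGCgaggacccagcggttaagag
Herc2, chr7:56050377-56050406, plus strand, -2: ctcggaggccGCGCAGTCAcggctgtcttt
Nedd4, chr9:72693186-72693215, plus strand, -102: gaaatcaagtGCTTTGTCAgtgaaggcgtt
Huwe1 and Smurf1 had no match in their windows. After siKEAP1 the 4 genes with these letters differed among themselves, since without the 2 libraries Herc2 rose, Nedd4 fell, and Trip12 and Herc1 did not pass. A match describes letters and not a bound site.

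Among the 19 other HECT genes, of which 18 were tested and Hecw1 was not, changes of up to 1.69 on the log2 scale against siCONTROL were found. After siKEAP1 4 rose and 4 fell, after siCCNF 6 rose and 4 fell, and after siKEAP1/siCCNF 4 rose and 5 fell, with medians of 0.16, 0.28 and 0.19. These are 8, 10 and 9 of 18 genes, near the 40.6%, 47.9% and 44.2% of all genes tested. Herc3, a small HERC ligase, stood at 13.1 to 14.5 CPM in siCONTROL, 43.2 to 47.4 CPM after siKEAP1, 15.4 to 17.8 CPM after siCCNF and 20.4 to 25.1 CPM after siKEAP1/siCCNF. The siKEAP1 level of Herc3 was 3.22 times that of siCONTROL, and the levels with CCNF depletion lay between. Herc3 rose by 1.69 after siKEAP1 (SE 0.09, adjusted p = 2.18e-08) and by 0.71 after siKEAP1/siCCNF (SE 0.09, adjusted p = 4.70e-05). Its interaction was -1.24 (SE 0.13, adjusted p = 3.63e-05), and without the 2 libraries -1.17.

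Hectd2 was lower in level, with 5.16 to 7.42 CPM in siCONTROL and 12.4 to 15.3 CPM after siKEAP1. It rose by 1.12 after siKEAP1 (SE 0.23, adjusted p = 0.00174) and by 0.98 without the 2 libraries, and its interaction was -1.14 (adjusted p = 0.0245) and -0.73. Arel1, a ligase of IAP antagonists, rose by 0.39 after siKEAP1 (SE 0.12, adjusted p = 0.0175), a call that was lost without siCONTROL replicate 1 (0.24), siKEAP1 replicate 2 (0.36) or siKEAP1 replicate 3 (0.36). On the other side, Wwp2 went from 114 to 122 CPM in siCONTROL to 78.0 to 82.3 CPM after siKEAP1 and fell by 0.57 (SE 0.08, adjusted p = 7.02e-05). G2e3 fell by 0.42 (SE 0.13, adjusted p = 0.0207), which was lost without siCONTROL replicate 2, siCONTROL replicate 3 or siKEAP1 replicate 2, and Ube3b by 0.31 (SE 0.07, adjusted p = 0.00390).

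CCNF depletion moved another pair in opposite directions. Ube3b, a calmodulin-binding ligase, stood at 111 to 134 CPM in siCONTROL, 99.6 to 101 CPM after siKEAP1, 245 to 248 CPM after siCCNF and 213 to 239 CPM after siKEAP1/siCCNF. It rose by 0.99 after siCCNF (SE 0.07, adjusted p = 2.22e-07) and by 0.85 after siKEAP1/siCCNF (SE 0.07, adjusted p = 1.03e-06), and against siKEAP1 alone the double depletion was 1.16 higher (adjusted p = 4.44e-08). Ube3a, the Angelman syndrome ligase and founder of the HECT class, stood at 50.7 to 81.1 CPM in siCONTROL, 72.5 to 81.1 CPM after siKEAP1, 38.1 to 42.6 CPM after siCCNF and 32.0 to 47.7 CPM after siKEAP1/siCCNF. It fell by 0.78 after siCCNF (SE 0.17, adjusted p = 0.00179) and by 0.71 after siKEAP1/siCCNF (SE 0.17, adjusted p = 0.00357), and without the 2 libraries by 0.96 and 0.74. The gene model of Ube3a, at 20626 bases, is longer than that of Trip12, and its fall passed in both fits.

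Hecw2 rose by 1.20 after siCCNF (SE 0.23, adjusted p = 0.000803) and by 0.84 after siKEAP1/siCCNF (SE 0.23, adjusted p = 0.00977), or 0.94 and 0.75 without the 2 libraries. Hectd4 rose by 0.72 after siCCNF (SE 0.21, adjusted p = 0.0106), or 0.48 without them. Hectd3 fell by 0.63 after siCCNF (SE 0.09, adjusted p = 7.61e-05) and by 0.84 after siKEAP1/siCCNF (SE 0.09, adjusted p = 7.54e-06). Hace1, a ligase of RAC1, fell by 0.52 (SE 0.09, adjusted p = 0.000507) and 0.55 (SE 0.09, adjusted p = 0.000383). Between the double depletion and siCCNF, Herc3 was the 1 gene of the 18 that passed (0.45, adjusted p = 0.0124), against 5.19% of all genes. It no longer did without siCCNF replicate 1 or 3 or siKEAP1/siCCNF replicate 1 or 2 (adjusted p = 0.0514 to 0.0782). Between the double depletion and siKEAP1, 1 of the 18 was higher (Ube3b) and 7 were lower, led by Herc3 (-0.98), Ube3a (-0.87) and Hectd2 (-0.80). In that comparison 51% of all genes passed in either direction. On 10 libraries 4 of the 18 rose and 6 fell after siKEAP1, 8 and 7 after siCCNF, and 9 and 7 after siKEAP1/siCCNF. In that fit 48.6%, 54.6% and 48.8% of all genes passed. Among genes of at least 10000 bases the shares were 58.2%, 68.1% and 62.3%.

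**Figure D4:**
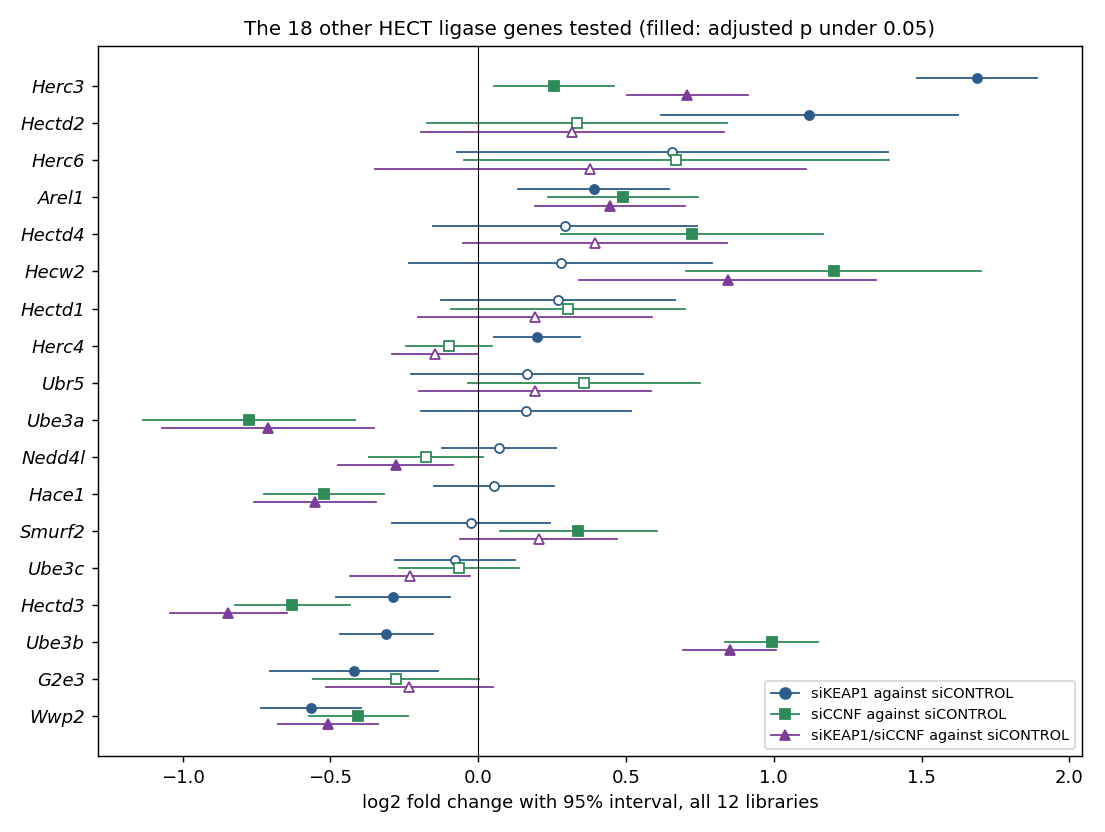
Log2 fold change against siCONTROL (x axis, with 95% intervals, all 12 libraries) of the 18 other HECT genes tested (y axis, ordered by the siKEAP1 value). Blue circles are siKEAP1, green squares siCCNF and purple triangles siKEAP1/siCCNF, filled where the adjusted p is under 0.05. Herc3 is farthest to the right after siKEAP1, at 1.69, and Ube3a and Ube3b lie on opposite sides of 0 after siCCNF.

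The partners of these ligases were followed through a list of 12 E2 enzymes, adaptors and related proteins, all tested. After siKEAP1 4 rose and 3 fell, after siCCNF 3 rose and 3 fell, and after siKEAP1/siCCNF 1 rose and 4 fell, with medians of 0.01, -0.01 and -0.02. These are 7, 6 and 5 of 12 genes, beside the 40.6%, 47.9% and 44.2% of all genes tested. Ndfip1 and Ndfip2 are membrane adaptors that recruit and activate Nedd4, Itch and their relatives. Ndfip1 stood at 166 to 174 CPM in siCONTROL, 198 to 205 CPM after siKEAP1, 41.9 to 45.4 CPM after siCCNF and 44.0 to 52.7 CPM after siKEAP1/siCCNF, so no library with CCNF depletion came near the others. It fell by 1.95 after siCCNF (SE 0.07, adjusted p = 2.06e-09) and by 1.78 after siKEAP1/siCCNF (SE 0.07, adjusted p = 3.29e-09), and no gene of the 3 lists differed more from siCONTROL. With a gene model of 930 bases, Ndfip1 is short, and without the 2 libraries it fell by 1.94 and 1.70. Ndfip2 fell by 0.71 (SE 0.06, adjusted p = 5.70e-07) and 0.57 (SE 0.06, adjusted p = 4.78e-06).

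Of the 3 arrestin-like adaptors of the same ligases, Arrdc3 and Arrdc4 rose after siCCNF, and Arrdc1 did not pass (-0.34, adjusted p = 0.0783). Arrdc3 rose by 0.88 after siCCNF (SE 0.12, adjusted p = 6.62e-05) and by 0.65 after siKEAP1/siCCNF (SE 0.12, adjusted p = 0.000852). Arrdc4 stood at 1.302 to 2.41 CPM in siCONTROL and 3.54 to 4.24 CPM after siCCNF, a rise by 1.13 (SE 0.27, adjusted p = 0.00347), and after siKEAP1/siCCNF it did not pass (0.39, adjusted p = 0.277). Ube2l3, an E2 enzyme that works with HECT ligases, fell from 149 to 165 CPM in siCONTROL to 95.7 to 103 CPM after siKEAP1, by 0.63 (SE 0.06, adjusted p = 3.91e-06). With CCNF also depleted it stood at 134 to 147 CPM, and its interaction was 0.46 (SE 0.09, adjusted p = 0.00251). Arrdc1 rose by 0.88 (SE 0.15, adjusted p = 0.000301) and Ube2l6, the E2 enzyme of ISG15, by 0.58 (SE 0.10, adjusted p = 0.000425) after siKEAP1. Ube2d3 was lower by -0.21 (SE 0.06, adjusted p = 0.0180), and this call was lost when the length trend was removed (-0.29, adjusted p = 0.172). It was also lost without siKEAP1 replicate 1 or 3 (adjusted p = 0.0613 and 0.0557) and with the compared libraries only (-0.20, adjusted p = 0.0581). Cul3, the scaffold on which KEAP1 acts, lay between 132 and 164 CPM in all libraries, and passed with all libraries only after siKEAP1/siCCNF (-0.17, adjusted p = 0.0449). Nfe2l2, which encodes NRF2, fell by 0.19, 0.41 and 0.64 after siKEAP1, siCCNF and siKEAP1/siCCNF (adjusted p = 0.0128, 3.75e-05 and 9.26e-07).

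The genes whose log2 CPM followed that of Trip12 most closely over the 12 libraries were Tnrc6b (r = 0.989), Sytl5 (0.986), Dst (0.986), Ptprg (0.985) and Asxl2 (0.985), among 9994 genes of sufficient level. All these values are descriptions over libraries that share the length trend. Of the 5, only Sytl5, at 2301 bases, had a gene model shorter than the median, and Dst measured 41155 bases. In all, 52 genes had r over 0.95, with a median length of 11357 bases beside 4618 for all genes searched. Without the 2 libraries 1 gene remained over 0.95, and the r of the 5 were 0.840, 0.947, 0.728, 0.851 and 0.955. Within the 8, the r of Huwe1 with Trip12 went from 0.932 over 12 libraries to 0.113 over 10, that of Wwp1 from 0.903 to 0.295 and that of Herc2 from 0.858 to 0.0867.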

How the data were processed

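RNA from C2C12 myoblasts was sequenced by the authors' service provider. The authors deposited 1 table with raw counts per gene and library and with FPKM values. The processing notes name HISAT2 and GRCm39, but the coordinates of the table are those of GRCm38 (GENCODE M21). The counter, annotation and strand setting are not given in the sources used here. The authors' own comparisons (normalized means, log2 fold change, p-value, adjusted p-value) were not used.

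Counts were tested with edgeR 4.0.16 in R 4.3.3. The steps were filterByExpr (15122 of 54532 genes kept), TMM, 1 quasi-likelihood fit of 4 group means, and Benjamini-Hochberg adjustment over all genes tested, with calls at an adjusted p under 0.05. log2 CPM used a prior count of 2. The code was tested on simulated data.

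The genes and lists were chosen with earlier results of these data known, including the 2 libraries left out together. Named are the 8 genes, per comparison up to 3 rises and 3 falls among other HECT genes and 2 of each among partners with adjusted p under 0.05, the siRNA targets, Nfe2l2, and the 5 genes closest to Trip12 with a mean of at least 3 log2 CPM. Cul3 was named outside this rule, after its values were seen. Alternatives were DESeq2 1.42.0 (also its size factors in edgeR), total library sizes, 2 filters (1 count in total, or 10 in every library), a replicate block, a length trend removed by splines with 5 degrees of freedom, limma 3.58.1 on log2(FPKM + 1), the compared libraries only, and leaving out libraries.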

Additional observations from a re-analysis of the deposited data

Results flagged for a closer look

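A test of the difference itself, the interaction of siKEAP1 and siCCNF, passed for 6 of the genes named. For these the effect of siKEAP1 differed between control cells and CCNF-depleted cells. Outside the 8 genes and the siRNA targets, genes were named because they passed, so this number is no finding in itself. In full, 0 of the 8 genes, 3 of 18 other HECT genes and 1 of 12 partners passed, against 21% of all genes tested. Among the other HECT ligases these were Herc3 (-1.24, adjusted p = 3.63e-05), Hectd2 (-1.14, adjusted p = 0.0245) and Wwp2 (0.46, adjusted p = 0.00910), all on the log2 scale by edgeR. The Hectd2 call was lost in 3 of the 12 fits that left out 1 library, namely without siKEAP1 replicate 3 (adjusted p = 0.0641), siCCNF replicate 2 (0.0582) or siCCNF replicate 3 (0.0606). Among the partners it was Ube2l3 (0.46, adjusted p = 0.00251). The siRNA targets themselves passed as well, Keap1 at 0.98 (adjusted p = 6.99e-05) and Ccnf at 0.71 (adjusted p = 0.000442), which means that each was lowered less in the double depletion than the single effects add up to. Whether the weaker depletion of Keap1 in siKEAP1/siCCNF had a part in the other 4 interactions was not tested.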

How the results depend on the processing

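The rises of Herc2 and Herc1 after siCCNF and every named value of Herc3, Ube3b and Ndfip1 against siCONTROL kept their direction under the alternatives run, and of these the call of Herc1 was lost without siCONTROL replicate 1 or siCCNF replicate 3. Of 2102 values of single genes under alternatives, 1956 kept their direction and side of the threshold, 63 passed newly, 41 no longer passed and 42 turned sign. The cause of the changes below was not tested.

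Of the 8 genes, the number called after siKEAP1, siCCNF, siKEAP1/siCCNF, siKEAP1/siCCNF against siKEAP1 and in the interaction was 1, 2, 1, 0 and 0, and became 5, 4, 4, 1 and 1 with the length trend removed, also with the replicate block added, and 3, 6, 6, 4 and 3 without siCONTROL replicate 1 and siKEAP1/siCCNF replicate 3. With no filter on low counts it was 5 after siKEAP1, 4 after siKEAP1/siCCNF and 2 in the interaction. After siKEAP1/siCCNF it was 0 with the replicate block, with limma on FPKM and with the compared libraries only, and DESeq2 gave 1 in the interaction. Leaving out 1 library gave 0 to 2, 1 to 3, 0 to 3, 0 to 1 and 0 to 0, and 0 to 0 against siCCNF.

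Over all genes, siKEAP1/siCCNF against siCCNF gave 785 calls, 1259 with the length trend removed, 1242 by DESeq2, 516 with the compared libraries only and 2186 without the 2 libraries, and the interaction 3181 and, without the 2, 4806. Leaving out 1 library gave 5113 to 6686 calls after siKEAP1, 6269 to 7672 after siCCNF, 5882 to 6943 after siKEAP1/siCCNF, 6665 to 8629 against siKEAP1, 363 to 1404 against siCCNF and 2429 to 3397 in the interaction. Over genes with at least 10 counts in every library, the length trend had r = 0.383 in siCONTROL replicate 3 and -0.460 in siKEAP1/siCCNF replicate 3.

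Signs turned only for values that did not pass with all libraries. After siCCNF, genes with at least 10 counts in every library gave 0.0037 for Itch and 0.0036 for Smurf1. With the length trend removed, Smurf1 was 0.013 after siCCNF, and Huwe1 0.027 and Herc2 0.011 against siKEAP1, or 0.017, 0.029 and 0.0087 with the replicate block. Leaving out 1 library, or both of those with the length trend together, gave after siKEAP1 -0.13 to 0.19 for Herc1, -0.11 to 0.081 for Smurf1 and -0.042 to 0.18 for Wwp1. After siCCNF these ranges were -0.022 to 0.29 for Trip12, -0.062 to 0.16 for Wwp1, -0.13 to 0.071 for Itch and -0.13 to 0.064 for Smurf1, and after siKEAP1/siCCNF -0.12 to 0.23 for Trip12 and -0.21 to 0.090 for Wwp1. Against siKEAP1 they were -0.17 to 0.15 for Huwe1, -0.17 to 0.16 for Herc2, -0.16 to 0.061 for Nedd4 and -0.026 to 0.23 for Itch. In the interaction they were -0.50 to 0.033 for Herc1, -0.19 to 0.022 for Smurf1, -0.016 to 0.36 for Itch and -0.33 to 0.055 for Wwp1.

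Whether replicate numbers pair the samples was not settled. Of 18 same-numbered pairs, 4 had a correlation of deviations over 0.1 (-0.268 to 0.204), and 5 of 36 other pairs did. Between siCONTROL, siKEAP1 and siCCNF, all same-numbered pairs lay above 0 (0.0035 to 0.204), and the others ran from -0.166 to 0.095. Same-numbered pairs with siKEAP1/siCCNF ran from -0.268 to 0.138. The replicate block gave 5953, 7081 and 6509 calls after siKEAP1, siCCNF and siKEAP1/siCCNF, beside 6133, 7247 and 6687 without it, and Herc2 after siKEAP1/siCCNF at adjusted p = 0.0526.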
